A study of Rattus norvegicus with 8 samples.

Results

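Transcripts of fibroblast growth factor (FGF) ligands and receptors were followed in rat cells as these were taken from the embryonic stem cell state to germ cell precursors. The precursors are called primordial germ cell-like cells (PGCLC), after the embryonic cells that give rise to gametes. The 10 genes were chosen by symbol, with earlier results of these data known, among the 22228 named genes of the deposited expression table. They are the 6 ligand genes Fgf2, Fgf4, Fgf5, Fgf8, Fgf10 and Fgf17 and the 4 receptor genes Fgfr1, Fgfr2, Fgfr3 and Fgfr4, and all 10 were found. RNA sequencing was done on 4 groups of 2 libraries, all of strain Crlj:WI and labelled wild type. Embryonic stem cells (ESC) grew on mouse embryonic fibroblast feeders in N2B27 with the MEK inhibitor PD0325901 (1 µM), the GSK3 inhibitor CHIR99021 (3 µM) and rat LIF (1000 U/ml). Epiblast-like cells (EpiLC) were aggregates held for 60 h with activin A (20 ng/ml), bFGF, which is FGF2 protein (12 ng/ml), and KSR (1%). PGCLC_d3 are cells induced from EpiLC aggregates for 3 days with BMP4 (500 ng/ml), rat LIF (1000 U/ml), SCF (100 ng/ml) and EGF (50 ng/ml). PGCLC_d3ag3 are PGCLC_d3 cells held for 3 further days in aggregates of 5000 PGCLC to 50000 gonadal somatic cells from female E15.5 embryos from which c-KIT-positive cells had been removed, in N2B27 with KSR (5%). Cells of both PGCLC groups were sorted by a tdTomato reporter at Nanos3, which the genotype label leaves out, whereas ESC and EpiLC were not described as sorted, so sorting and group cannot be told apart. No label says whether replicates came from separate cultures, so the p-values measure only the spread between these libraries, which may be technical.

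FGF ligands are secreted proteins that bind receptor tyrosine kinases on the cell surface together with heparan sulfate chains. The activated receptors signal through adaptor proteins to RAS, RAF, MEK and ERK, and ERK activity switches on feedback inhibitors such as sprouty and dual-specificity phosphatase genes. In the early rodent embryo FGF4 is made by pluripotent cells and drives them out of the naive state through ERK, FGF5 marks the epiblast after implantation, and FGF8 acts around gastrulation. Stem cells held with a MEK inhibitor are blocked below the receptor.

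The values are log2(TPM+1) as deposited, where TPM is a relative abundance scaled by gene length and library total, so that levels can be compared between genes. Levels are given below as TPM and differences on the log2(TPM+1) scale, which understates changes of low genes. Replicates correlated at Pearson r of 0.9946 to 0.9975 across 13571 genes, which are not independent. Relative sequencing depth, read from the smallest steps between low values, lay between 1 and 1.5 in the ESC, EpiLC and PGCLC_d3 libraries and at 2.17 and 2.38 in PGCLC_d3ag3. Read totals were not given, so the numbers of reads are not known. The cell type labels were checked against marker lists. The 6 naive pluripotency markers summed to 2064 and 2049 TPM in ESC and to 84.3 to 199.8 in the other libraries. All 6 were highest in ESC. Most of the sum was Nanog in PGCLC_d3 (148 and 169) and PGCLC_d3ag3 (142 and 157), while Zfp42 and Tfcp2l1 were lower there than in EpiLC. The 6 formative epiblast markers summed to 3224 and 3461 in EpiLC and to 40.6 to 179 elsewhere. Most of the EpiLC sum was Dnmt3b, at 2666 and 2887. Otx2, Pou3f1, Dnmt3a and Sall2 were also highest in EpiLC, whereas Zic2 was lower there (4.27 and 4.62) than in ESC (9.16 and 9.44). The 6 germ cell specification markers summed to 1424 and 1431 in PGCLC_d3 and to 929.9 and 930.1 in PGCLC_d3ag3 and to 32.9 to 116 in ESC and EpiLC. The 5 gonadal germ cell markers summed to 1120 and 1152 in PGCLC_d3ag3, 6.14 and 5.80 in PGCLC_d3 and 62.6 to 206 in ESC and EpiLC. All 5 were highest in PGCLC_d3ag3. Most of the sum in ESC and EpiLC was Ddx4, at 51.7 and 57.6 in ESC and 162 and 134 in EpiLC, against 204 and 201 in PGCLC_d3ag3.

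The promoters of 4 members that had the largest shifts between EpiLC and PGCLC_d3 are shown, since Fgf8, Fgfr2 and Fgfr3 rose together at that step and Fgf4 fell. They were taken from RefSeq (build GRCr8, another build than the one the reads were mapped to), which held 8 of the 10 members. Each is the 250 bases before the annotated start, 5′ to 3′ on the gene's strand, and lies at chr1:209452979-209453228, plus strand, for Fgf4, chr1:254539606-254539855, minus strand, for Fgf8, chr1:194280915-194281164, minus strand, for Fgfr2 and chr14:81227210-81227459, minus strand, for Fgfr3. Capitals mark matches, on either strand, to the GC box GGGCGG and to CCAAT. Overlapping matches were counted separately.
Fgf4 promoter: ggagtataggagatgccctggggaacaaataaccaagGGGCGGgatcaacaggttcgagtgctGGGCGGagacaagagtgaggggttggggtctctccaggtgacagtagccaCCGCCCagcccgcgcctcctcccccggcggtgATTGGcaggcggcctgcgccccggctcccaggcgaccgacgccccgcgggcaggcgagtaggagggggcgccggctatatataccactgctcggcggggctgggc
Fgf8 promoter: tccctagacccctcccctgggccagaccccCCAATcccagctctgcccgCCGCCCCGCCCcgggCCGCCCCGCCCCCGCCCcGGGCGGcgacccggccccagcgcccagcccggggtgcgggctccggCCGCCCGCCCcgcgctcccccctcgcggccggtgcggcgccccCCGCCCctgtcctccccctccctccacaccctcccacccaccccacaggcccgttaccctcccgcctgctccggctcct
Fgfr2 promoter: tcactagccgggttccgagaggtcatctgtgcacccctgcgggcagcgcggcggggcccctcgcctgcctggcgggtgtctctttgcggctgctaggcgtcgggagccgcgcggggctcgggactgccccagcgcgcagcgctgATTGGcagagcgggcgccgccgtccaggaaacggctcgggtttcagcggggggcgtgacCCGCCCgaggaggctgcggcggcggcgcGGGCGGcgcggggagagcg
Fgfr3 promoter: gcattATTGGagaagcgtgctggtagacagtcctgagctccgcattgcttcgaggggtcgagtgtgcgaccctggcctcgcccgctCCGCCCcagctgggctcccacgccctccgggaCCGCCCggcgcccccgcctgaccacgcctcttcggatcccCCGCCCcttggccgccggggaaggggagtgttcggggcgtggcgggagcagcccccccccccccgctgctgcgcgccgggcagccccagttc
GGGCGG matched 3 times in the Fgf4 promoter, 9 times in Fgf8, 2 times in Fgfr2 and 3 times in Fgfr3, and CCAAT matched 1 time in each. A GGGCGG match was found in 30.5% and a CCAAT match in 34% of 33469 promoters of the same length. TATAAA (12.9% of promoters), the octamer ATGCAAAT (1.56%) and the ETS-type string CCGGAAG (7.27%) had no match in these 4 windows. The GC content was 68.8% for Fgf4, 83.2% for Fgf8, 76.8% for Fgfr2 and 74.4% for Fgfr3, against a median of 51.2% over all promoters. The gene that fell and the 3 that rose thus shared GGGCGG and CCAAT matches. Of the other members held, Fgf5 and Fgfr4 had GGGCGG but no CCAAT matches, and Fgf2 and Fgf10 had neither. The rates over all promoters are not matched for GC content, so they do not show whether GGGCGG is frequent for windows this rich in GC. Only exact strings were searched. The Fgf4 window holds the run tatatata shortly before the start, which the search for TATAAA does not count and the other 3 windows lack. A role of any of these strings was not tested.

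Fgf4, the ligand of pluripotent cells, was high in ESC and EpiLC and near 0 in both germ cell groups. It stood at 138 and 148 TPM in the ESC libraries, 85.4 and 70.7 in EpiLC, 0.119 and 0.241 in PGCLC_d3, and 0.867 and 0.132 in PGCLC_d3ag3. No library of the ESC and EpiLC groups came within the range of either PGCLC group, whereas the 2 PGCLC groups overlapped. The difference of EpiLC from ESC was -0.87 (SE 0.21), called lower by limma with Benjamini-Hochberg adjustment over all tested genes (adjusted p = 0.0040), and this call ended at adjusted p = 0.18 when 0.1 in place of 1 was added to TPM. That fit takes its spread from all 4 groups, and why the call ended was not tested. PGCLC_d3 was lower than EpiLC by -6.06 (SE 0.21; limma adjusted p = 5.8e-09). From PGCLC_d3 to PGCLC_d3ag3 the difference of 0.30 did not pass (95% interval -0.16 to 0.77; limma adjusted p = 0.21). It was -0.058 without PGCLC_d3ag3 replicate 1 and 0.66 (limma adjusted p = 0.0034) without replicate 2.

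Fgf8, a ligand of the gastrulating embryo, was highest in PGCLC_d3 and lowest in ESC. It measured 0.326 and 0.0792 TPM in ESC, 5.05 and 7.77 in EpiLC, 118 and 92.1 in PGCLC_d3, and 2.76 and 3.93 in PGCLC_d3ag3. The groups did not overlap at any step, and the PGCLC_d3 libraries stood far above the other 6. Scaled for depth, the first ESC value was 3.01 times the second, close to a whole number as in counts of very few reads. Fgf8 rose by 2.61 (SE 0.22) from ESC to EpiLC and by 3.86 (SE 0.22) from EpiLC to PGCLC_d3, and fell by 4.61 (SE 0.22) from PGCLC_d3 to PGCLC_d3ag3, with limma adjusted p of 3.0e-06, 1.5e-07 and 1.3e-07. The lower level of PGCLC_d3ag3 than of EpiLC (-0.76, limma adjusted p = 0.0087) was not past the threshold without EpiLC replicate 2 (-0.49, adjusted p = 0.095), without PGCLC_d3ag3 replicate 1 (-0.56, adjusted p = 0.072) or with 0.1 added to TPM (-0.91, adjusted p = 0.058).

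Fgf17, a close relative of Fgf8 in sequence and receptor use, did not share its order and was a gene of ESC. Its levels were 35.6 and 44.0 TPM in ESC, 1.68 and 0.727 in EpiLC, 2.15 and 1.62 in PGCLC_d3, and 0.0504 and 0.0461 in PGCLC_d3ag3. EpiLC and PGCLC_d3 overlapped, and both lay between ESC above and PGCLC_d3ag3 below. Fgf17 fell by 4.24 (SE 0.21) from ESC to EpiLC (limma adjusted p = 7.4e-08) and by 1.45 (SE 0.21) from PGCLC_d3 to PGCLC_d3ag3 (limma adjusted p = 1.5e-04). The difference of PGCLC_d3 from EpiLC, 0.42, was not called (95% interval -0.050 to 0.88; limma adjusted p = 0.094), although without EpiLC replicate 1 it was 0.73 (limma adjusted p = 0.0099).

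Fgf10, known as a mesenchymal ligand of FGFR2 in limb and lung, followed the order of Fgf17. It stood at 15.3 and 20.9 TPM in ESC, 2.22 and 3.21 in EpiLC, 3.51 and 2.60 in PGCLC_d3, and was listed at 0 in one PGCLC_d3ag3 library and at 0.544 in the other. EpiLC and PGCLC_d3 overlapped here too. The fall from ESC to EpiLC was -2.36 (SE 0.24; limma adjusted p = 1.3e-05) and that from PGCLC_d3 to PGCLC_d3ag3 was -1.70 (SE 0.24; limma adjusted p = 1.4e-04), with 0.13 between EpiLC and PGCLC_d3 (95% interval -0.41 to 0.66; limma adjusted p = 0.64). With 0.1 added to TPM the last step was -3.62 for Fgf10 and -3.73 for Fgf17, so the size of these falls near 0 depends on the constant. The same change took the rise to EpiLC from 2.61 to 4.53 for Fgf8 and from 1.74 to 3.12 for Fgfr2, and the fall to PGCLC_d3 from -0.64 to -1.73 for Fgfr4.

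Fgf2 and Fgf5 were at or near 0 in every group and did not pass the filter for testing, a TPM of at least 1 in at least 2 libraries. Fgf2, whose protein was added to the EpiLC medium, was listed at 0.101 TPM in EpiLC replicate 1 and at 0 in the other 7 libraries. Fgf5, the textbook marker of the epiblast after implantation, was listed at 0.0747 in EpiLC replicate 1, at 0.0367 in PGCLC_d3ag3 replicate 2 and at 0 in the other 6. With so few reads, a level in EpiLC apart from that in ESC was not detectable for either gene.

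**Figure D1:**
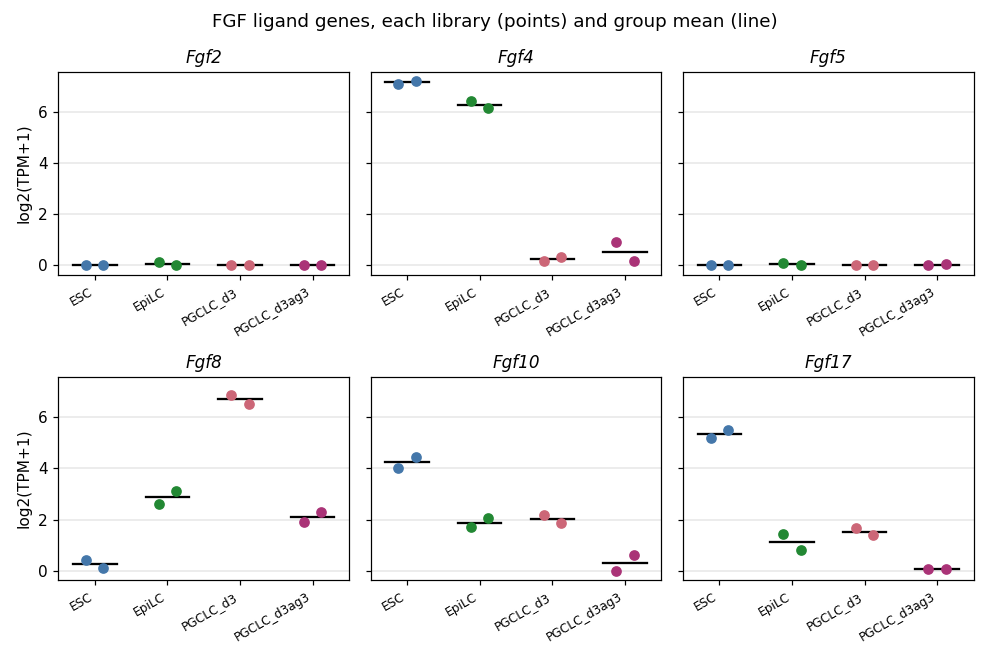
Deposited log2(TPM+1) of the 6 ligand genes (vertical axis) in ESC, EpiLC, PGCLC_d3 and PGCLC_d3ag3 (horizontal axis), with 1 point per library and a line at the group mean. Fgf4, Fgf10 and Fgf17 are highest in ESC and Fgf8 in PGCLC_d3, while Fgf2 and Fgf5 lie at or near 0 in all 8 libraries.

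Fgfr1, the main receptor of pluripotent cells, was the most abundant receptor in all 8 libraries. It measured 123 and 137 TPM in ESC, 169 and 167 in EpiLC, 271 and 264 in PGCLC_d3, and 113 and 142 in PGCLC_d3ag3. The PGCLC_d3 libraries were above the other 6, and the ESC and PGCLC_d3ag3 groups overlapped. Fgfr1 rose by 0.37 (SE 0.096) to EpiLC (limma adjusted p = 0.0068), a call that ended without ESC replicate 1 (0.29, limma adjusted p = 0.067), and by 0.67 (SE 0.096) to PGCLC_d3 (limma adjusted p = 1.3e-04). It fell by 1.08 (SE 0.096) to PGCLC_d3ag3 (limma adjusted p = 7.0e-06). ESC and PGCLC_d3ag3 differed by -0.040 (95% interval -0.26 to 0.18; limma adjusted p = 0.72), and without PGCLC_d3ag3 replicate 2 by -0.20 (limma adjusted p = 0.029). PGCLC_d3ag3 was lower than EpiLC by -0.41 (limma adjusted p = 0.0030), and by -0.25 without PGCLC_d3ag3 replicate 1.

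Fgfr2 and Fgfr3 were low in ESC, a little higher in EpiLC and high in both germ cell groups. Fgfr2, whose splice forms bind different sets of ligands, stood at 0.408 and 0.199 TPM in ESC, 2.14 and 5.01 in EpiLC, 55.4 and 60.9 in PGCLC_d3, and 56.1 and 55.8 in PGCLC_d3ag3. The last 2 groups overlapped and lay above every other library. Fgfr2 rose by 1.74 (SE 0.24; limma adjusted p = 1.3e-04) and then by 3.76 (SE 0.24; limma adjusted p = 4.2e-07), and the difference of PGCLC_d3ag3 from PGCLC_d3 was -0.053 (95% interval -0.60 to 0.49; limma adjusted p = 0.86). Fgfr3 measured 1.61 and 1.64 TPM in ESC, 5.43 and 5.68 in EpiLC, 57.0 and 62.7 in PGCLC_d3, and 34.6 and 32.7 in PGCLC_d3ag3. No 2 of its groups overlapped. It rose by 1.32 (SE 0.10; limma adjusted p = 1.6e-06) and 3.21 (SE 0.10; limma adjusted p = 3.3e-09) and then fell by 0.81 (SE 0.10; limma adjusted p = 5.8e-05).

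Fgfr4, the receptor of FGF19-type hormones in liver, was low throughout. It was at 1.1 and 1.16 TPM in ESC, 1.1 and 0.681 in EpiLC, 0.115 and 0.299 in PGCLC_d3, and 0.348 and 0.191 in PGCLC_d3ag3. All 4 libraries of ESC and EpiLC were above all 4 of the PGCLC groups, and within each pair the groups overlapped. PGCLC_d3 was lower than EpiLC by -0.64 (SE 0.15; limma adjusted p = 0.0026). The differences of EpiLC from ESC (-0.18, 95% interval -0.51 to 0.15) and of PGCLC_d3ag3 from PGCLC_d3 (0.075, 95% interval -0.25 to 0.40) were not called, at limma adjusted p of 0.31 and 0.67.

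**Figure D2:**
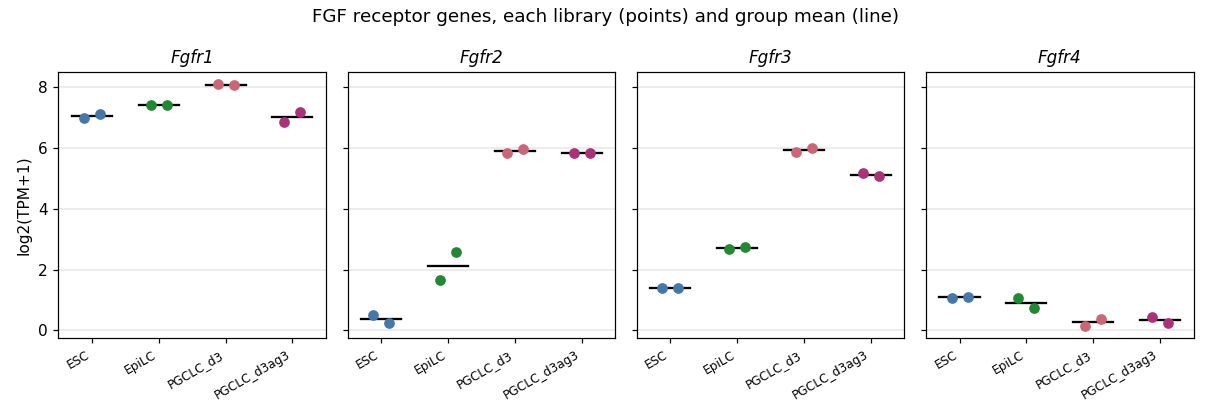
Deposited log2(TPM+1) of the 4 receptor genes (vertical axis) in the 4 groups (horizontal axis), with 1 point per library and a line at the group mean. Fgfr1 is high everywhere and highest in PGCLC_d3, Fgfr2 and Fgfr3 are high in both PGCLC groups, and Fgfr4 stays low.

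The make-up of the ligand and receptor transcripts changed along the series. Pairs of values are given as replicate 1 and then 2. Fgf4 held 72.9% and 69.5% of the summed TPM of the 6 ligands in ESC and 90.3% and 85.8% in EpiLC. Fgf8 held 95.3% and 95.4% in PGCLC_d3. The ligand sum was 189 and 213 TPM in ESC, 94.5 and 82.4 in EpiLC and 124 and 96.6 in PGCLC_d3. It was only 3.67 and 4.69 in PGCLC_d3ag3, where Fgf8 held 75.0% and 83.8%. These values depend on which ligands are summed. Over all 18 secreted ligands listed, the sum was 232 ± 18.3 TPM (SD, n = 2) in ESC, 251 ± 30.3 in EpiLC, 202 ± 20.4 in PGCLC_d3 and 19.9 ± 0.015 in PGCLC_d3ag3, and Fgf8 held 51.9% ± 3.88 in PGCLC_d3 and 16.8% ± 4.2 in PGCLC_d3ag3. The fall of the 6-gene sum from ESC to EpiLC was not seen in the sum of 18, whereas PGCLC_d3ag3 was lowest in both. Among the 4 receptors Fgfr1 held 97.7% ± 0.23 (SD, n = 2) in ESC, 94.4% ± 1.03 in EpiLC, 69.3% ± 1.85 in PGCLC_d3 and 58.4% ± 4.40 in PGCLC_d3ag3. Fgfr2 rose in share from 0.233% ± 0.13 in ESC to 15.1% ± 0.90 in PGCLC_d3 and 25.9% ± 2.34 in PGCLC_d3ag3. Fgfr3 rose from 1.22% ± 0.076 to shares of 14.9% and 16.2% in the PGCLC_d3 libraries and 15.6% ± 1.99 in PGCLC_d3ag3. The receptor sum was 126 and 140.0 TPM in ESC, 177 and 179 in EpiLC, 383 and 388 in PGCLC_d3, and 204 and 230.3 in PGCLC_d3ag3. Aggregated cells thus had the lowest ligand sum of the 4 groups, by either set, and a receptor sum above that of ESC and EpiLC in both libraries. An exact permutation test of 2 libraries against 2 (2-sided) cannot go below p = 0.333, so these shares are given without a test.

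**Figure D3:**
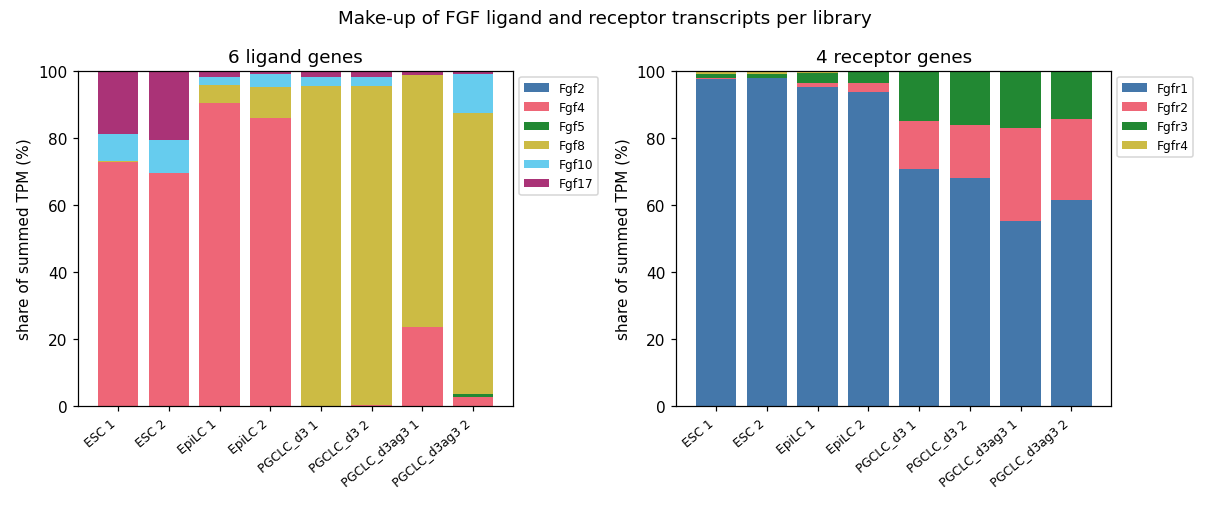
Share of summed TPM (vertical axis, percent) held by each of the 6 ligand genes (left) and 4 receptor genes (right) in each library (horizontal axis, group and replicate number). Fgf4 gives way to Fgf8 between EpiLC and PGCLC_d3, and the Fgfr1 share falls from 97.7% in ESC to 58.4% in PGCLC_d3ag3 as those of Fgfr2 and Fgfr3 grow.

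Of the 10 members, 8 passed the filter and were tested among all 13571 genes that did so. From ESC to EpiLC 4 of the 8 rose (Fgf8, Fgfr1, Fgfr2 and Fgfr3) and 3 fell (Fgf4, Fgf10 and Fgf17), against 67.3% of all tested genes called (35.4% higher and 31.8% lower). From EpiLC to PGCLC_d3 4 rose (Fgf8, Fgfr1, Fgfr2 and Fgfr3) and 2 fell (Fgf4 and Fgfr4), against 74.9% of all genes (47.3% higher and 27.6% lower). From PGCLC_d3 to PGCLC_d3ag3 none rose and 5 fell (Fgf8, Fgf10, Fgf17, Fgfr1 and Fgfr3), against 70.4% of all genes (25.7% higher and 44.8% lower). The share of members called was near that of all genes, so the counts say little about the members. Their median absolute difference was 1.53, 1.94 and 0.94 over the 3 steps, beside 0.46, 0.60 and 0.49 for all tested genes. The members and the pathway lists were chosen with earlier results of these data known. Medians set beside those of all genes, here and below, are therefore a description only. The steps share their middle groups, so the signs of one step and the next are not independent.

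Over the pairs of groups that are not successive, PGCLC_d3 differed from ESC in all 8 tested members, 4 up and 4 down, where 77% of all genes were called (49.6% higher and 27.4% lower). PGCLC_d3ag3 differed from ESC in 7 (3 up and 4 down), where 77.3% of all genes were called (42.5% higher and 34.8% lower). It differed from EpiLC in 8 (2 up and 6 down), where 77.7% were called (41% higher and 36.7% lower). The median tested gene itself moved by 0.21 from EpiLC to PGCLC_d3, by -0.18 from there to PGCLC_d3ag3 and by 0.25 from ESC to PGCLC_d3, and by -0.019, -0.010 and 0.0011 after median-of-ratios rescaling. The share of called genes that were higher was 63.2%, 36.4% and 64.4% for these 3 pairs, 49.0%, 49.7% and 50.3% after that rescaling, and 50.8%, 49.9% and 52.3% after quantile normalization. Relative to the median gene, Fgfr1 changed by 0.46 from EpiLC to PGCLC_d3 (0.40 after median-of-ratios rescaling) and by -0.90 at the next step, and Fgfr3 by 3.00 and -0.63.

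**Figure D4:**
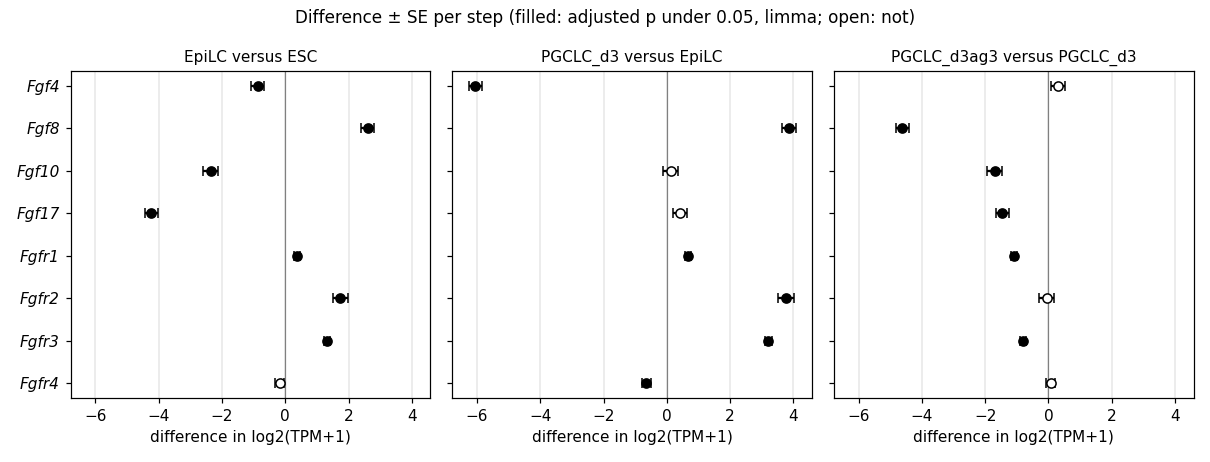
Difference in log2(TPM+1) ± SE (horizontal axis) of the 8 tested members (vertical axis) at the 3 successive steps, filled where limma's adjusted p was under 0.05. The largest differences are those of Fgf4 (-6.06) from EpiLC to PGCLC_d3, of Fgf8 (-4.61) at the last step and of Fgf17 (-4.24) from ESC to EpiLC.

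Markers of other cells also varied between libraries. The 8 fibroblast and feeder markers summed to 45.1 TPM in EpiLC replicate 1 and 84.2 in replicate 2, against 27.5 and 21.8 in ESC, 3.84 and 7.09 in PGCLC_d3 and 12.3 and 15.4 in PGCLC_d3ag3. Fgfr2, Fgf8 and Fgf10 were also higher in EpiLC replicate 2 than in replicate 1, while Fgf17 and Fgf4 were lower. The 10 gonadal somatic markers summed to 14.1 and 19.4 TPM in PGCLC_d3ag3, 10.04 and 8.59 in PGCLC_d3, 18.6 and 17.8 in EpiLC and 6.26 and 6.77 in ESC. Of these 10 genes Wt1, Gata4, Nr5a1, Foxl2, Lhx9 and Amhr2 were higher in both PGCLC_d3ag3 libraries than in both of PGCLC_d3, Fst, Nr2f2 and Tcf21 overlapped, and Pdgfra was lower. Gata4 went from 2.66 and 2.55 TPM in PGCLC_d3 to 4.70 and 5.12, Amhr2 from 0.430 and 0.398 to 3.74 and 4.26, Wt1 from 0.0396 and 0.0614 to 1.28 and 1.17, and Nr5a1 from 0.0541 and 0.0935 to 0.867 and 0.747. Foxl2, a gene of ovarian supporting cells, was at 0.289 and 0.461 and the stromal gene Nr2f2 at 0 and 0.0585 in PGCLC_d3ag3. Of the 7 endothelial and blood markers Hbb, a globin gene, was at 4.81 and 11.3 in PGCLC_d3ag3 and at 0 in the other 6 libraries. Pecam1, which pluripotent and germ cells also express, made up most of that list's sum of 141 and 149.9 in PGCLC_d3ag3, 20.9 and 20.04 in PGCLC_d3, 51.5 and 48.5 in EpiLC and 103 and 105 in ESC. The 6 primitive endoderm markers summed to 65.0 and 51.4 in PGCLC_d3 and to 15.4 or less elsewhere, and the 6 streak and mesoderm markers to 123 and 109 in PGCLC_d3, the group of highest Fgf8, and to 49.9 or less elsewhere. In PGCLC_d3 these sums came mostly from Sox17 (57.5 and 45.0), which primordial germ cells can also express, and from Tbxt (64.0 and 52.0) and Hand1 (53.6 and 53.4), while Eomes was at 1.90 and 1.48 against 45.8 and 44.4 in EpiLC. The part of such cells or genes in the FGF results was not tested, and in sorted bulk samples fewer cells of a type and less RNA per cell cannot be told apart.

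Of the 12 other secreted ligands only Fgf9, Fgf18 and Fgf19 passed the filter. Fgf19 is the rat symbol for the gene called Fgf15 in mouse, and it is the neighbour of Fgf4 on the RefSeq map. It did not follow Fgf4: its level was 26.7 ± 0.20 TPM (SD, n = 2) in ESC, 158 ± 20.6 in EpiLC, 74.1 ± 0.96 in PGCLC_d3 and 12.1 ± 0.070 in PGCLC_d3ag3. It rose by 2.52 to EpiLC and fell by 1.08 and 2.52 at the next 2 steps (limma adjusted p = 6.6e-09, 2.1e-06 and 2.4e-08). Counted with all 18 secreted ligands, Fgf19 held 62.9% ± 0.59 of the summed TPM in EpiLC, where Fgf4 held 31.1% ± 0.38, and 60.7% ± 0.40 in PGCLC_d3ag3. Fgf18, of the Fgf8 subfamily of ligands, rose by 1.79 to 14.1 ± 0.074 TPM in PGCLC_d3 and fell by 3.54 to 0.304 ± 0.13 after aggregation (limma adjusted p = 1.4e-05 and 2.8e-07). Fgf9, a ligand of the developing gonad, was at 0.114 ± 0.071 TPM in EpiLC, 0.762 ± 0.073 in PGCLC_d3 and 2.52 ± 0.53 in PGCLC_d3ag3. These are differences of 0.66 and 0.99, both called higher. Fgf9 reached 1 TPM only in PGCLC_d3ag3 (2.90 and 2.14), so it passed the filter only through its highest group. Its calls are therefore a description and not support. The other neighbour of Fgf4, Fgf3, was at 0.487 and 1.31 TPM in ESC and at 0.569 or less elsewhere, too low to be tested. Of the 4 intracellular FGF homologous factors, which are not secreted, Fgf11 and Fgf13 were tested. Fgf11 rose by 0.37 to EpiLC and fell by 2.37 and 0.74 at the next steps, and Fgf13 fell by 0.87 to EpiLC and was not called after that (0.40 and 0.043). The rise of Fgf11 was not called with 0.1 added to TPM, and was 0.32 to 0.41 with 1 library left out. The 0.40 of Fgf13 was called higher when only the groups compared were fitted.

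Co-receptors and heparan sulfate genes set which ligands can bind. Of the 77 tested genes in all pathway lists 77.9%, 76.6% and 83.1% were called at the 3 steps. The shares of all tested genes were 67.3%, 74.9% and 70.4%. For the 20 heparan sulfate genes they were 75%, 65% and 80%, and for the 4 co-receptor and decoy genes 100%, 50% and 100%. Of the 4 tested genes of the co-receptor and decoy list 3 rose (Cd44, Fgfrl1 and Klb) and 1 fell (Fgfbp3) from ESC to EpiLC, none rose and 2 fell (Cd44 and Klb) to PGCLC_d3, and 2 rose (Cd44 and Klb) and 2 fell (Fgfbp3 and Fgfrl1) to PGCLC_d3ag3. The last fall of Fgfbp3 was not called after quantile normalization. Cd44 reached 1 TPM only in EpiLC (1.54 and 1.36), so it passed the filter only through its highest group. Its calls are likewise a description and not support. Klb, the co-receptor of FGF19-type hormones, was at 1.77 ± 0.24, 6.39 ± 0.21, 2.15 ± 0.029 and 3.57 ± 0.60 TPM (SD, n = 2) from ESC to PGCLC_d3ag3, and all 3 of its steps were called. Fgfrl1, a receptor without a kinase domain, rose by 1.62 to 8.27 ± 0.85 in EpiLC (limma adjusted p = 5.3e-04) and fell by 2.39 from PGCLC_d3 to 1.23 ± 1.11 in PGCLC_d3ag3 (limma adjusted p = 4.0e-05). Of 20 heparan sulfate genes 8 rose and 7 fell to EpiLC, 7 rose and 6 fell to PGCLC_d3, and 1 rose and 15 fell to PGCLC_d3ag3, where the list median was -0.93 (-0.74 after median-of-ratios rescaling and -0.64 after quantile normalization) beside -0.18 for all genes. At the middle step the counts were 6 and 7 after median-of-ratios rescaling and 6 and 8 after quantile normalization. The glypican Gpc3 rose by 5.49 to 56.3 ± 3.15 TPM in EpiLC and fell by 2.73 from PGCLC_d3 to PGCLC_d3ag3, and the sulfotransferase Hs6st2 fell by 5.29 from EpiLC, at 79.5 ± 5.76, to 1.05 ± 0.0040 in PGCLC_d3. Hs2st1, the heparan sulfate 2-O-sulfotransferase, was the 1 gene of the list that rose after aggregation, by 0.62 to 34.8 ± 0.40 (limma adjusted p = 6.0e-05).

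Adaptor and cascade genes moved in both directions. At the 3 steps 84.6%, 92.3% and 92.3% of the adaptor list were called, and 50%, 85.7% and 78.6% of the RAS to ERK list. The shares of all tested genes were 67.3%, 74.9% and 70.4%. Of 13 adaptors and first effectors 5 rose (Cbl, Frs2, Plcg1, Ptpn11 and Shc1) and 6 fell to EpiLC, 6 rose and 6 fell to PGCLC_d3 (4 and 7 after median-of-ratios rescaling, 5 and 7 after quantile normalization), and 2 rose (Gab1 and Grb2) and 10 fell to PGCLC_d3ag3 (3 and 7 after median-of-ratios rescaling, 3 and 6 after quantile normalization). The docking genes Gab1 and Gab2 went opposite ways: Gab1 fell by 2.09 from EpiLC to PGCLC_d3 and rose by 1.88 after aggregation, and Gab2 rose by 3.08 and fell by 1.79 (limma adjusted p = 8.8e-09, 6.1e-08, 2.6e-08 and 2.1e-06). Of 14 RAS to ERK genes 4 rose and 3 fell to EpiLC. At the next step 6 rose and 6 fell (5 and 8 after median-of-ratios rescaling, 5 and 6 after quantile normalization), and at the last 4 rose and 7 fell (5 and 4 under either rescaling). Mapk3, which encodes ERK1, rose by 1.31 to 180 ± 1.24 TPM in EpiLC and fell by 1.78 to 51.8 ± 0.70 in PGCLC_d3, while Rras2, a RAS-related GTPase gene, rose by 2.1 to 272 ± 17.3 at that step (limma adjusted p = 1.7e-06, 1.6e-07 and 2.6e-09).

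Of 16 feedback genes of FGF and ERK signalling 12 rose and 4 fell (Dusp5, Etv4, Etv5 and Spry2) from ESC to EpiLC. At this step the MEK inhibitor was removed and bFGF was added, among other changes of medium. The part of these changes in the calls was not tested. To PGCLC_d3 10 rose and 2 fell (Dusp5 and Spred3) (8 and 5 under either rescaling). To PGCLC_d3ag3 none was called higher and 13 fell (1 and 11 under either rescaling). Egr1 of this list was not called at that step, but its values were higher without overlap. It stood at 75.6 and 96.9 TPM in PGCLC_d3 and 186 and 203 in PGCLC_d3ag3. Its ESC libraries stood at 27.4 and 5.16, and why Egr1 was not called at the last step was not tested. The list medians were 1.11, 0.53 and -0.89, beside 0.04, 0.21 and -0.18 for all tested genes. Called were 100%, 75% and 81.2% of the list at the 3 steps, beside 67.3%, 74.9% and 70.4% of all tested genes. Dusp6, an ERK phosphatase, rose by 5.30 from 4.00 ± 0.43 TPM (SD, n = 2) in ESC to 196 ± 19.6 in EpiLC, stood at 261 ± 3.47 in PGCLC_d3 and fell by 1.99 to 65.0 ± 3.53 in PGCLC_d3ag3 (limma adjusted p = 1.0e-10 and 9.7e-08). Its rise of 0.41 to PGCLC_d3 (limma adjusted p = 0.0018) was 0.14 after median-of-ratios rescaling (limma adjusted p = 0.21). Etv4 and Etv5, ETS transcription factor genes, fell by 4.16 and 1.18 to EpiLC, rose by 4.91 and 1.43 to PGCLC_d3 and fell by 2.1 and 0.41 after aggregation. Spry2 fell by 1.22 to EpiLC and by 1.55 after aggregation, Spry4 rose by 1.13 and then fell by 2.29, and neither was called between EpiLC and PGCLC_d3 (-0.10 and -0.14), although both were called lower there under either rescaling.

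Splicing factors that set the FGFR isoform changed as well, but the table gives 1 value per gene and no isoforms. Of 5 listed factors 3 rose (Esrp1, Ptbp1 and Ptbp2) and 1 fell (Esrp2) to EpiLC, 2 rose (Esrp1 and Esrp2) and 2 fell (Ptbp1 and Ptbp2) to PGCLC_d3, and none rose and 4 fell (Esrp1, Esrp2, Ptbp1 and Rbfox2) to PGCLC_d3ag3. The fall of Rbfox2 was not called under either rescaling. At each step 80% of the list was called, beside 67.3%, 74.9% and 70.4% of all tested genes. Esrp1, which favours the epithelial form of FGFR2, rose by 5.49 from 0.228 ± 0.098 TPM in ESC to 54.1 ± 4.26 in EpiLC and by 0.99 to 108 ± 0.59 in PGCLC_d3 (limma adjusted p = 1.0e-10 and 5.3e-06). Esrp2, its paralogue, fell by 2.23 from 63.6 ± 6.54 to 12.8 ± 0.84 and then rose by 1.42 to 36.0 ± 0.15 (limma adjusted p = 2.1e-08 and 3.9e-07).

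**Figure D5:**
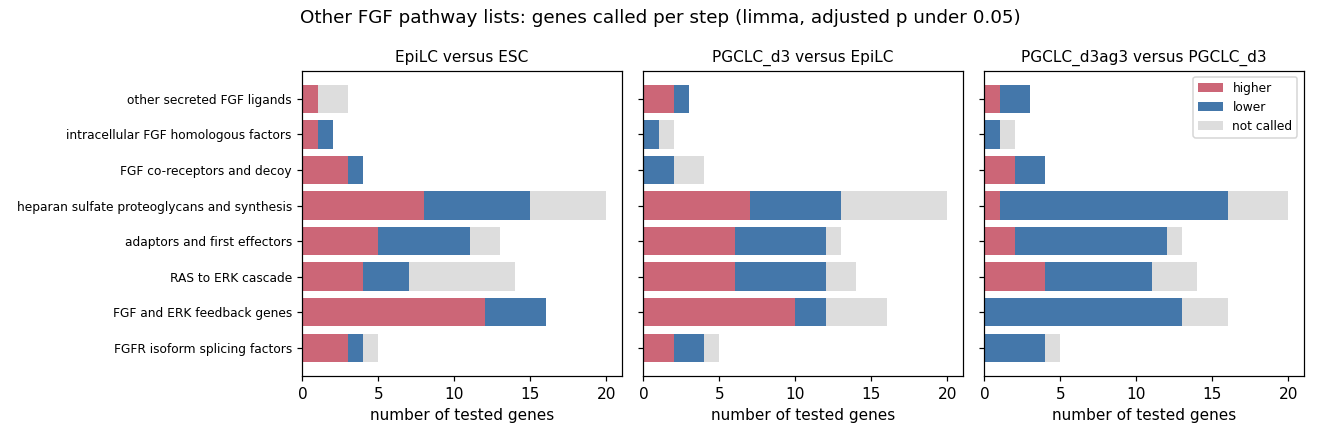
Number of tested genes (horizontal axis) called higher, lower or not called by limma at adjusted p under 0.05 in 8 lists of other FGF pathway genes (vertical axis) at the 3 successive steps. At the last step 10 of the 77 genes are higher and 54 lower, among them 13 of 16 feedback genes and 15 of 20 heparan sulfate genes. Of all tested genes 25.7% are higher and 44.8% lower at that step.

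Genes whose profile was most like that of a member were found by Pearson's r over the 8 log2 values among 8897 genes with a group mean of at least 10 TPM. The closest were H2az1, Rnf5 and Mfng for Fgf4 (r = 0.997 for each), Idua, Ap1m2 and Fam184a for Fgf8 (0.997, 0.993 and 0.992), Tbc1d13, Efr3a and Zdhhc7 for Fgf10 (0.995, 0.994 and 0.994), and Rnf13, Lrp10 and Nnat for Fgf17 (0.996, 0.995 and 0.995). They were Nbeal2, Surf2 and Ppp3ca for Fgfr1 (0.994, 0.992 and 0.991), Lins1, Tom1l1 and Dgke for Fgfr2 (0.997 for each), and Cmss1, Ctsh and Mtmr10 for Fgfr3 (0.999, 0.998 and 0.998). The 8 points are 4 groups of 2 libraries of unequal depth, so high values are easily reached and are a description only. Likeness here is of shape and not of size: Mfng, a Fringe glycosyltransferase gene, went from 29.5 TPM in ESC to 0.535 in PGCLC_d3, whereas the histone gene H2az1 went from 3771 to 1625.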

How the data were processed

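RNA sequencing values of 8 libraries were used, and sample titles gave the 4 groups of 2. Per the labels' protocols, RNA came from a PicoPure kit, cDNA from SMART-Seq v4 and the sequencing libraries from KAPA Hyper Prep. The submitters' processing notes name bcl2fastq 2.20, cutadapt 1.1.6, HISAT2 2.1.0, featureCounts of Subread 1.6.5 and the rat build rn7. The deposited values are log2(TPM+1) per gene, made by the authors, and TPM was recovered from them. The table has 22228 named genes, and 11066 blank rows were left out. Whether mouse feeder reads entered the values was not tested. No coordinates of the build rn7 were used here.

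The filter kept 13571 genes, those reaching 1 TPM in 2 or more libraries. One limma fit (limma 3.58.1, R 4.3.3) held all 4 groups, with 4 residual degrees of freedom and moderated variances with a trend, and its 2-sided tests were called where the adjusted p (Benjamini-Hochberg, all genes of a pair of groups) was under 0.05. Intervals are limma's 95% intervals, without adjustment. The fit was tested on simulated data. Depth is relative, from the ratio most often found between the low values of 2 libraries, and the precision of low genes is that of few reads.

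The 10 members and the pathway and marker lists were chosen with earlier results of these data known. Beside the members, the text names from each pathway list up to 3 called genes with the largest difference at a step and at least 1 TPM in the higher group, counts of 5 or fewer in full, and Dusp6, Spry2, Spry4, Etv4 and Etv5; not all that qualify are printed, and some single genes of the RAS to ERK list are not reported here. Profile likeness names the 3 highest r per member. Fgf3, Egr1 and the single marker genes were named after their values were seen. Alternatives were other filters, a pseudocount of 0.1 in place of 1, median-of-ratios and quantile scaling, no variance trend, only the groups compared, a replicate block, and leaving out each library.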

Additional observations from a re-analysis of the deposited data

How the results depend on the processing

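The number of members called stayed within 1.5 times its reported value under all 16 alternatives in all 6 pairs of groups, between 6 and 8 for EpiLC versus ESC, 5 and 7 for PGCLC_d3 versus EpiLC, and 5 and 6 for PGCLC_d3ag3 versus PGCLC_d3. With so few members, most of them called, that limit could hardly be broken and says little about stability. Of 762 alternative values of single members 741 kept direction and side of the threshold, 5 lost the call and 4 gained one. The other 12 of the 762 turned in sign, and none of these was called in either setting. For Fgf10, PGCLC_d3 versus EpiLC, the difference was -0.072 after median-of-ratios rescaling, -0.18 after quantile normalization and -0.064 to 0.32 with 1 library left out. For Fgfr2, PGCLC_d3ag3 versus PGCLC_d3, it was 0.15 and 0.11 under the same scalings and -0.12 to 0.015 with 1 library left out. With 1 library left out, the range was -0.058 to 0.66 for Fgf4, PGCLC_d3ag3 versus PGCLC_d3, -0.036 to 0.18 for Fgfr4, PGCLC_d3ag3 versus PGCLC_d3, and -0.20 to 0.12 for Fgfr1, PGCLC_d3ag3 versus ESC. Where a library is left out, the lone library of its group is assumed to vary like the other groups. Fgfr4, EpiLC versus ESC, was called lower after quantile normalization (-0.42, limma adjusted p = 0.033). Under a filter of 5 TPM in 2 libraries Fgfr4 was not tested. The cause of these changes was not tested.

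The replicate numbers are not said to pair libraries, and same-numbered deviations from the group means correlated at -0.037 to 0.066 across genes. With a replicate block, 7, 6 and 5 members were called at the 3 successive steps and 8, 7 and 8 in the other pairs, as without it. Few reads limit Fgf2, Fgf5, Fgfr4, Fgf8 and Fgfr2 in ESC, Fgf4 in both PGCLC groups, and Fgf10 and Fgf17 in PGCLC_d3ag3. With 0.1 added to TPM the fall of Fgf4, PGCLC_d3 versus EpiLC, was -8.15.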
